A study of Mus musculus with 12 samples.

Results

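The genes of glycolysis and gluconeogenesis were taken as the rows of the dorsal skin table whose KEGG annotation names that pathway, which gave 64 of 36400 genes. KEGG draws the pathway broadly, so the 64 members hold the enzymes from glucose to pyruvate and lactate, those that run the path backwards, the pyruvate dehydrogenase complex, acetyl-CoA synthetases and alcohol and aldehyde dehydrogenases. RNA was sequenced from the back skin of 12 female BALB/c mice, 6 weeks old when obtained and killed on day 30, with 3 mice in each of 4 groups and 1 library from each mouse. Hair on the back was removed in each group before the start, and was shaved again in the last week before the mice were killed. In control mice acetone and olive oil, the solvent of the allergen, were applied alone. DNCB mice were sensitized with 1% 2,4-dinitrochlorobenzene, a contact allergen, and then challenged with 0.5%, which gives a dermatitis resembling atopic dermatitis. The scMSC and scivMSC mice received the same DNCB course and 4 injections of 2000000 human umbilical cord mesenchymal stem cells between day 13 and day 25. In scMSC the whole dose was subcutaneous (100 µL), and in scivMSC it was split between a subcutaneous injection (50 µL) and the tail vein (50 µL). Neither MSC group has a counterpart that received MSCs without DNCB.

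Glycolysis breaks glucose down to pyruvate, yields ATP without oxygen, and feeds lactate dehydrogenase when oxygen or mitochondria are short. Most steps have several isoenzymes: skeletal muscle relies on Pfkm, Pgam2 and Eno3 and carries its own fructose bisphosphatase, Fbp2, whereas Pgam1 and Eno1 are the forms of most other cells. Keratinocytes of the epidermis and activated leukocytes are both strongly glycolytic. Mouse back skin lies on a thin sheet of striated muscle, the panniculus carnosus, so a full skin sample can hold muscle RNA.

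Levels are given as FPKM, fragments scaled for transcript length and for the mapped fragments of the library, which can be compared between genes. Differences are log2 fold changes ± standard error from edgeR's quasi-likelihood test on the estimated counts, positive where the first group named is higher, and a gene was called past the threshold at a Benjamini-Hochberg adjusted p under 0.05 over the 21890 genes tested. Estimated counts summed to between 63877153 and 75134001 per library, and replicates of a group correlated at r = 0.944 to 0.967. All 64 members are protein coding. Of them 59 passed the filter of a mean of 0.1 FPKM, 54 had a mean of at least 1 FPKM and 9 a mean of at least 100 FPKM. The 5 members not tested, Hkdc1, Adh4, Pdha2, Ldhal6b and Aldoart1, reached at most 0.281 FPKM in any library. The members together held 1.44 to 1.91% of all FPKM in control, 0.842 to 0.919% in DNCB, 0.741 to 0.981% in scMSC and 0.755 to 0.968% in scivMSC, so the control libraries lay above the other 9.

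In DNCB skin more members were lower than higher when set against control skin. Against control, 22 of 59 members were lower in the DNCB group (37.3%, where 12.4% of all genes tested were lower) and 6 were higher (10.2%, where the background was 12.9%). The median log2 fold change was -0.35 over the members and 0.02 over all genes tested. Among the 22 were Hk2, Gpi1, Pfkm, Aldoa, Tpi1, Pgam2, Eno3, Ldha, Ldhb, the pyruvate dehydrogenase genes Pdha1, Pdhb, Pdhx, Dlat and Dld, Acss1, Acss2, Aldh2, Aldh3a1, Fbp2, G6pc3 and Pgm1. The 6 higher members were Pfkl, Pgam1, Eno1, Pgm2, Adpgk and Aldh9a1. Without control replicate 1, or without control replicate 2, 3 members were higher. Scaling by library size alone gave 11 higher and 20 lower, and limma on log2(FPKM + 1) 11 and 21.

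Against the MSC groups the balance lay the other way. In the DNCB group 13 members were higher than in scMSC (22.0%, background 5.77%) and 6 were lower (10.2%, background 6.95%). Compared with scivMSC, 9 members were higher in DNCB (15.3%, background 3.60%) and 5 were lower (8.47%, background 4.56%). The median log2 fold changes of the members were 0.00 and -0.05, beside -0.02 over all genes in both comparisons. Many of these calls were lost when 1 library was left out. Shares over all genes are not given for those fits. Adjusted p values also rose outside the pathway, for Hif1a against scivMSC from 0.00714 to at most 0.0384 in edgeR's test. Without DNCB replicate 1, DNCB replicate 2 or scivMSC replicate 1 no member was higher in DNCB than in scivMSC, and 2, 1 and 5 were without DNCB replicate 3, scivMSC replicate 3 and control replicate 2. The 5 lower members became 2 without any 1 of the DNCB replicates or without scivMSC replicate 1, and 3 without scivMSC replicate 3. Against scMSC the 13 higher members became 7 without DNCB replicate 1, DNCB replicate 2 or scMSC replicate 3, and 6 without DNCB replicate 3 or scMSC replicate 2. Of the members called against scMSC 9 of 19 kept the call whichever library was left out, and of those called against scivMSC 2 of 14 did, Acss1 and Aldh3a1.

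The MSC groups also differed from control. In scMSC 23 members were lower than in control (39.0%, background 8.12%) and 4 were higher (6.78%, background 10.4%), and in scivMSC 18 were lower (30.5%, background 6.13%) and 4 were higher (6.78%, background 7.11%). The scivMSC total of 22 became 12 without scivMSC replicate 1 and 14 without scivMSC replicate 2. The 3 comparisons with control share the control libraries, and the 3 with DNCB share the DNCB libraries. Between the MSC groups no member was called in either direction by edgeR (backgrounds 0.00% and 0.00457%), DESeq2 or limma. In edgeR's test 10 of the 59 members had an unadjusted p under 0.05, as did 1642 of all 21890 genes tested. No difference between the injection routes was detectable for these genes with 3 mice in each group.

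**Figure D1:**
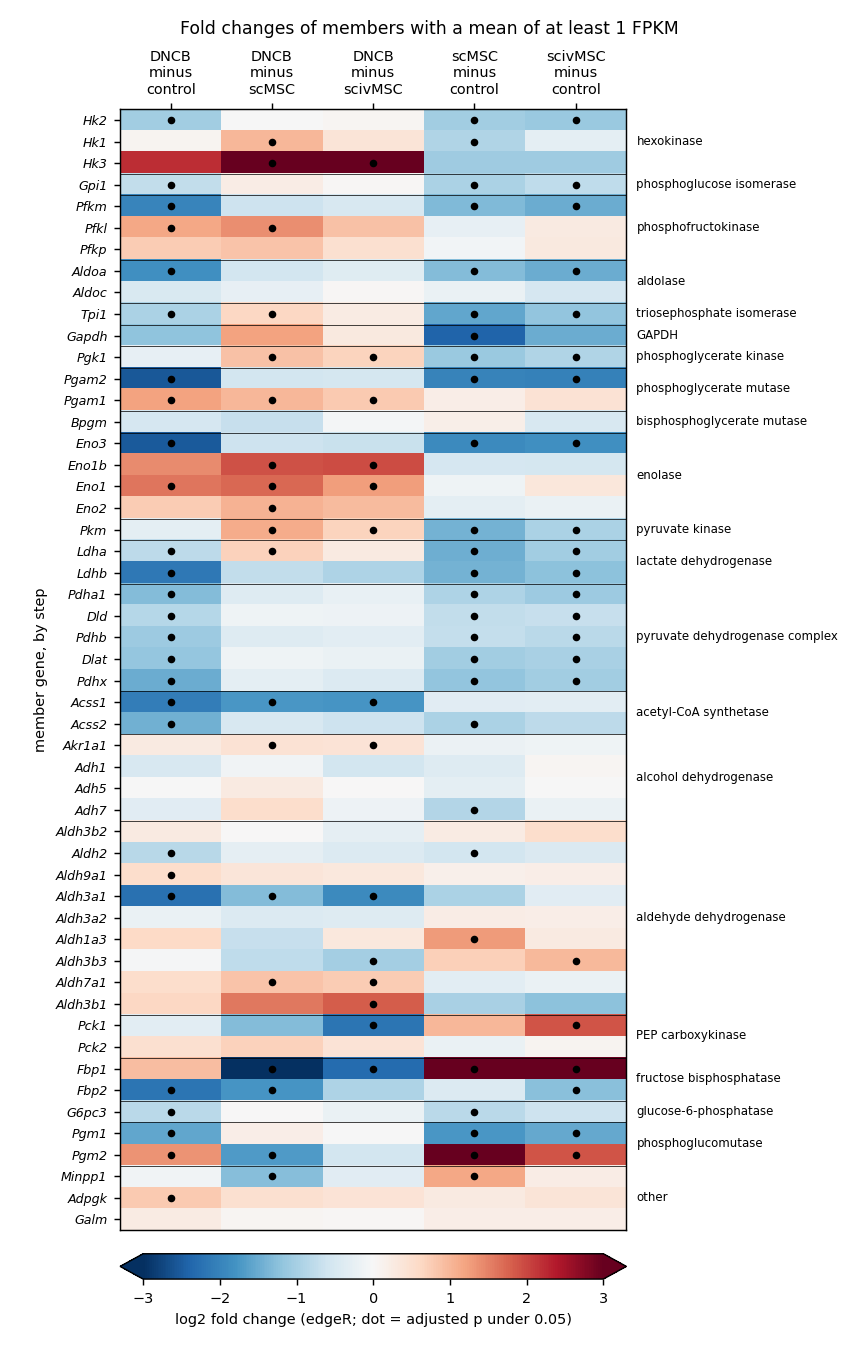
Log2 fold changes of 52 of the members with a mean of at least 1 FPKM, 1 row a gene in the order of the pathway's steps, in 5 comparisons (columns); colours run from -3 (blue, lower in the first group named) to 3 (red) and saturate beyond, and a dot marks an adjusted p under 0.05 in edgeR's test. The column of DNCB against control holds 21 dots on blue and 6 on red, and those of DNCB against the MSC groups hold 13 and 9 on red.

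The 4 muscle isoforms were lower in DNCB skin than in control skin. Pfkm, the muscle phosphofructokinase that commits fructose 6-phosphate to glycolysis (chromosome 15, 98092589 to 98132447 of GRCm38), stood at 541, 436 and 337 FPKM in the control mice, 113, 128 and 144 in DNCB, 193, 144 and 251 in scMSC and 154, 128 and 244 in scivMSC. The control mice lay above each of the other 9 mice, and DNCB replicate 3 equalled scMSC replicate 2 to 3 digits and overlapped the scivMSC range. Its log2 fold change was -1.97 ± 0.30 (SE, adjusted p = 0.00153) against control, and -0.63 ± 0.29 (SE, adjusted p = 0.21) against scMSC and -0.48 ± 0.29 (SE, adjusted p = 0.381) against scivMSC.

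Pgam2, the muscle phosphoglycerate mutase that turns 3-phosphoglycerate into 2-phosphoglycerate (chromosome 11, 5801640 to 5803733), stood at 1093, 1043 and 692 FPKM in the control mice, 154, 179 and 218 in DNCB, 260, 208 and 331 in scMSC and 213, 117 and 442 in scivMSC. Again the control mice were highest with no overlap, and the lowest value of the series was in scivMSC replicate 2. The log2 fold change of DNCB against control was -2.55 ± 0.44 (SE, adjusted p = 0.00249), and those against scMSC and scivMSC, -0.55 ± 0.42 (SE, adjusted p = 0.47) and -0.53 ± 0.42 (SE, adjusted p = 0.516), did not pass. Eno3, the muscle enolase of the step that follows (chromosome 11, 70657202 to 70662513), stood at 1486, 1422 and 1015 FPKM in the control mice, 210, 286 and 289 in DNCB, 372, 330 and 484 in scMSC and 399, 287 and 541 in scivMSC. The control mice were again highest, the DNCB mice lay below the scMSC mice and overlapped the scivMSC range, with a log2 fold change of -2.51 ± 0.29 (SE, adjusted p = 0.000608) against control, -0.61 ± 0.28 (SE, adjusted p = 0.195) against scMSC and -0.67 ± 0.28 (SE, adjusted p = 0.179) against scivMSC. Pfkm, Pgam2 and Eno3 were also lower in scMSC than in control, at -1.33, -2.0 and -1.90 (adjusted p = 0.0119, 0.0103 and 0.00203), and in scivMSC, at -1.49, -2.03 and -1.85 (adjusted p = 0.011, 0.0142 and 0.0053). The call of Pgam2 in scivMSC against control was lost without scivMSC replicate 1 (adjusted p = 0.0573).

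Fbp2, the muscle fructose bisphosphatase that reverses the Pfkm step (chromosome 13, 62836877 to 62858422), followed another order. Its level was 47.4, 24.5 and 22.9 FPKM in the control mice, 4.80, 8.22 and 10.8 in DNCB, 33.1, 22 and 25.5 in scMSC and 12.6, 11.5 and 20.3 in scivMSC. The DNCB mice lay below each of the other 9, and the scMSC and control mice overlapped. The log2 fold change of DNCB was -2.18 ± 0.39 (SE, adjusted p = 0.00277) against control and -1.77 ± 0.38 (SE, adjusted p = 0.0126) against scMSC, and -0.92 ± 0.37 (SE, adjusted p = 0.167) against scivMSC. Fbp2 did not differ past the threshold between scMSC and control (-0.41 ± 0.37, adjusted p = 0.489), where the other 3 muscle isoforms did. Its call in scivMSC against control (-1.26 ± 0.38, adjusted p = 0.0492) was lost without any 1 of 9 libraries, control replicate 1 and scivMSC replicate 1 among them (adjusted p up to 0.162).

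**Figure D2:**
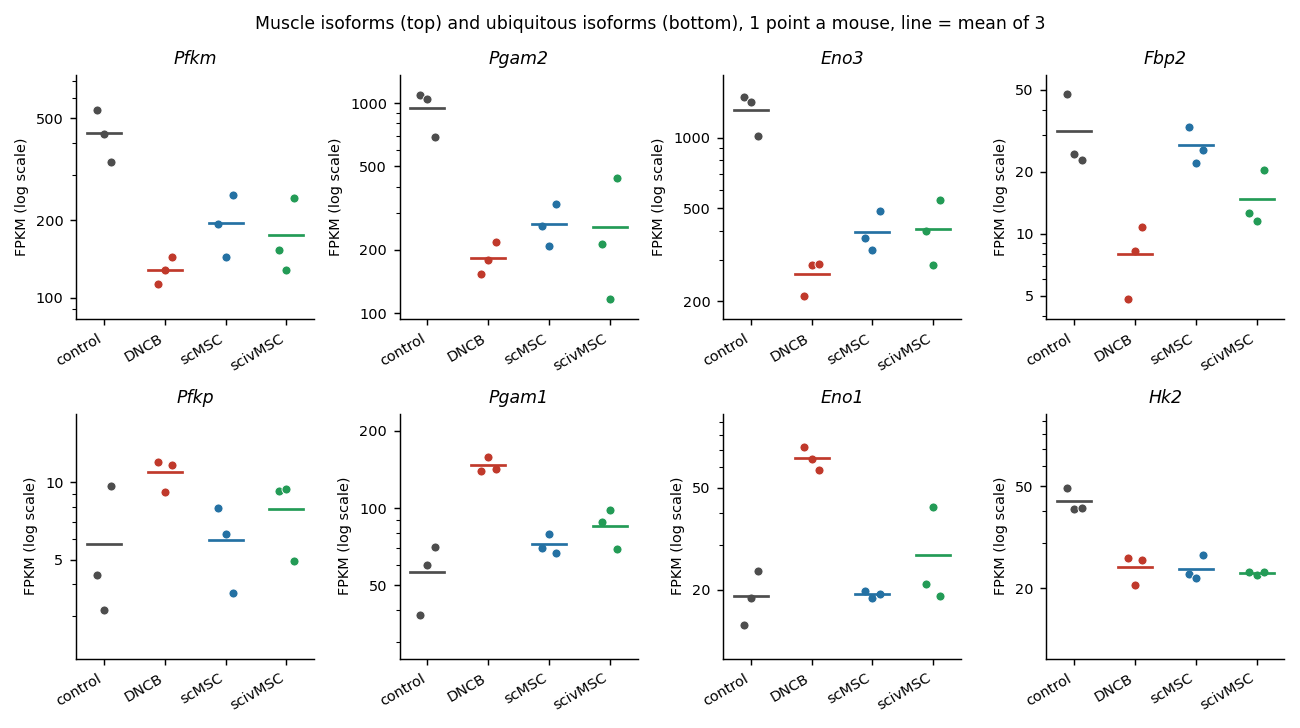
FPKM (log axis) of the muscle isoforms Pfkm, Pgam2, Eno3 and Fbp2 (top) and of the ubiquitous isoforms Pfkp, Pgam1, Eno1 and Hk2 (bottom) in each mouse, 1 point a mouse and a line at the mean of 3, by group. For Pfkm, Pgam2 and Eno3 the control points stand above all others, for Pgam1 and Eno1 the DNCB points do, and Hk2 has the shape of the muscle isoforms, with control mice at 40.8 to 49.3 FPKM and all others at 20.6 to 27.0.

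Among the 4 genes paired with them as ubiquitous forms, the DNCB group held the highest Pgam1 and Eno1. Pgam1, the mutase of most tissues (chromosome 19, 41911923 to 41918660), stood at 38.2, 59.8 and 70.3 FPKM in the control mice, 140, 158 and 142 in DNCB, 69.9, 79.5 and 67 in scMSC and 88.1, 98.3 and 69 in scivMSC. The DNCB mice were above every other mouse, and the log2 fold change was 1.21 ± 0.20 (SE, adjusted p = 0.00197) against control, 0.99 ± 0.20 (SE, adjusted p = 0.00897) against scMSC and 0.78 ± 0.20 (SE, adjusted p = 0.0357) against scivMSC. The last call was lost without any 1 of the DNCB replicates, control replicate 2, scivMSC replicate 1 or scivMSC replicate 3 (adjusted p up to 0.132).

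Eno1, the enolase of most tissues (chromosome 4, 150236721 to 150248879), stood at 14.6, 18.6 and 23.6 FPKM in the control mice, 71.8, 64.5 and 58.9 in DNCB, 19.8, 18.6 and 19.3 in scMSC and 21.1, 42 and 18.9 in scivMSC. Here too the DNCB mice lay above all others, with scivMSC replicate 2 next. The log2 fold change was 1.60 ± 0.26 (SE, adjusted p = 0.00185) against control, 1.73 ± 0.26 (SE, adjusted p = 0.00283) against scMSC and 1.26 ± 0.26 (SE, adjusted p = 0.0173) against scivMSC. Without DNCB replicate 1, DNCB replicate 2, scivMSC replicate 1 or scivMSC replicate 3 the scivMSC call was lost (adjusted p up to 0.0719). Neither gene passed the threshold between an MSC group and control: for Eno1 the log2 fold changes were -0.13 ± 0.25 (SE, adjusted p = 0.778) in scMSC and 0.35 ± 0.25 (SE, adjusted p = 0.42) in scivMSC, and for Pgam1 0.21 ± 0.20 (SE, adjusted p = 0.496) and 0.43 ± 0.20 (SE, adjusted p = 0.185).

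The remaining pair of that set went separate ways. Pfkp, the platelet-type phosphofructokinase, was low, at 4.37, 3.17 and 9.69 FPKM in the control mice, 12, 9.13 and 11.7 in DNCB, 7.94, 6.31 and 3.69 in scMSC and 9.25, 9.38 and 4.93 in scivMSC. The DNCB mice lay above the scMSC mice and overlapped the control and scivMSC mice, and its log2 fold changes of 0.77 ± 0.39 (SE, adjusted p = 0.175), 0.85 ± 0.39 (SE, adjusted p = 0.201) and 0.48 ± 0.39 (SE, adjusted p = 0.516) against control, scMSC and scivMSC did not pass. The call against control was made without control replicate 3 (adjusted p = 0.0296), the control mouse with the highest value. The Pfkp transcripts share 748 bases with those of its neighbour Pitrm1, so reads of that stretch could be counted for either. Hk2, the hexokinase of muscle, fat and growing cells, which phosphorylates glucose on entry, was 49.3, 40.8 and 41 FPKM in the control mice, 26.2, 20.6 and 25.7 in DNCB, 22.7, 21.8 and 27 in scMSC and 23, 22.5 and 23 in scivMSC. It fell with the muscle isoforms, at -1.04 ± 0.14 (SE, adjusted p = 0.000916) against control, and did not differ past the threshold from scMSC (-0.01 ± 0.14, adjusted p = 0.995) or scivMSC (0.07 ± 0.14, adjusted p = 0.829).

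As a description of the contrast, the mean log2 fold change of the 4 muscle isoforms minus that of the 4 ubiquitous ones was -2.94 for DNCB against control (-2.30 and 0.63). The same difference was -1.79 against scMSC and -1.29 against scivMSC, and the standard deviation of the difference between replicates of a group was 0.62 on the log2 scale. Leaving out 1 library moved the value against scivMSC between -1.68, without scivMSC replicate 2, and -0.75, without scivMSC replicate 3. In single mice, Pgam2 made up 90.8 to 96.6% of Pgam1 and Pgam2 together in control, 52.4 to 60.6% in DNCB, 72.4 to 83.1% in scMSC and 54.3 to 86.5% in scivMSC. The highest DNCB share was below the lowest scMSC share, whereas scivMSC replicate 2 lay within the DNCB range. Eno3 was 97.7 to 99% of Eno1 and Eno3 in control and 74.5 to 83.1% in DNCB. In scMSC that share was 94.7 to 96.2% and in scivMSC 87.2 to 96.6%, above the DNCB mice in both groups. Pfkm made up 93.6 to 98.1% of the phosphofructokinases in control, 76.6 to 81.3% in DNCB, 90.3 to 96.1% in scMSC and 83 to 94.6% in scivMSC.

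Genes of muscle outside the pathway moved with these isoforms. The summed level of 16 skeletal muscle markers (Acta1, Ckm, Myh4, Ttn and others, none at 0 in every library) was 24072 to 34219 FPKM in control, 6327 to 8738 in DNCB, 6567 to 14344 in scMSC and 7285 to 17583 in scivMSC. Of the 16, 13 were lower in DNCB than in control, where 12.4% of all genes tested were lower, and Myh2, Myh4 and Mb did not pass. The median log2 fold change of the 16 was -2.09, beside -2.35 for the 4 muscle isoforms, and none of the 16 passed between DNCB and either MSC group. In each library the 4 muscle isoforms together amounted to these shares of that marker sum: 8.55 to 9.30% in control, 7.57 to 7.95% in DNCB, 7.61 to 10.7% in scMSC and 7.09 to 8.25% in scivMSC. So while the isoforms' own sum ran from 482 to 661 FPKM in DNCB to 2067 to 3167 in control, the ratio of that sum to other muscle transcripts differed far less. In bulk RNA, fewer cells of a type and less RNA per cell cannot be told apart. The part of the muscle content in these results was not tested.

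Taken singly, the genes differed in their ratio to the marker sum. Pfkm was 1.28 to 1.59% of it in control and 1.64 to 1.79% in DNCB, higher in DNCB without overlap. Pgam2 was 2.88 to 3.21% in control and 2.37 to 2.49% in DNCB, and Eno3 4.15 to 4.36% and 3.31 to 3.78%, both lower in DNCB without overlap. Ldhb was 0.238 to 0.351% of it in control and 0.297 to 0.356% in DNCB, with overlapping groups. Aldoa was 5.14 to 6.07% in control and 7.42 to 7.82% in DNCB, and Pgm1 0.353 to 0.404% and 0.563 to 0.620%, both without overlap. Hk2 differed most of these genes, at 0.119 to 0.170% in control and 0.273 to 0.414% in DNCB. Fbp2 was 0.0717 to 0.139% in control, 0.0759 to 0.124% in DNCB and 0.178 to 0.334% in scMSC, where all 3 mice lay above the other 9. These shares are descriptions and carry no test.

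**Figure D3:**
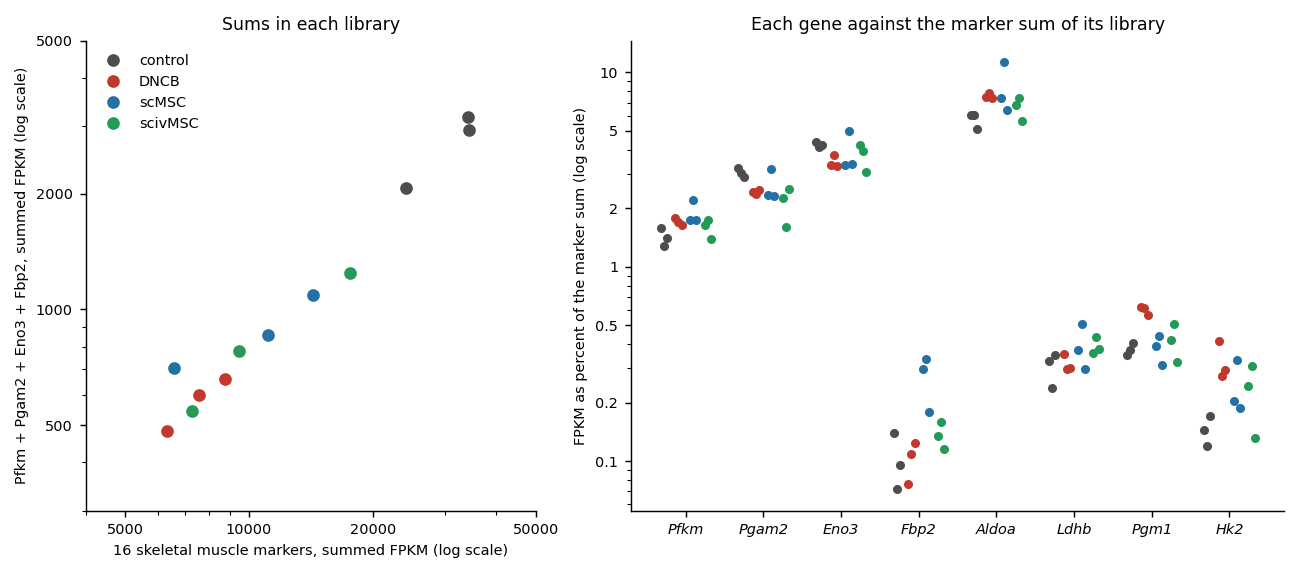
Left, the summed FPKM of Pfkm, Pgam2, Eno3 and Fbp2 (vertical) against the summed FPKM of 16 skeletal muscle markers (horizontal), both on log axes, 1 point a mouse coloured by group; right, each of 8 members as a percent of the marker sum of its library (log axis), 1 point a mouse. The 3 control mice stand apart at the top right and the other 9 run down the same line, while on the right Pgm1 and Hk2 are higher in DNCB than in control and Fbp2 is highest in scMSC.

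The promoters of Pgam2 and Pgam1 and of Eno3 and Eno1 are printed because the isoforms of each pair moved in opposite directions between DNCB and control. The 250 bases before the transcription start were read from the RefSeq promoters of GRCm38.p6 (54 of the 64 members have one). Capitals mark the E-box CANNTG, the core bound by muscle regulatory factors among others, and ACGTG, a form of the core of the HIF-1 response element. The other form of that core, GCGTG, was not searched or marked, so a window without ACGTG can still hold it. Both strands were searched, and CACGTG would hold both motifs. Eno1 has 3 listed starts and Pfkm 4, and for each gene only the start nearest its annotated coordinate was used.

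Pgam2, chr11:5803797-5804046, minus strand: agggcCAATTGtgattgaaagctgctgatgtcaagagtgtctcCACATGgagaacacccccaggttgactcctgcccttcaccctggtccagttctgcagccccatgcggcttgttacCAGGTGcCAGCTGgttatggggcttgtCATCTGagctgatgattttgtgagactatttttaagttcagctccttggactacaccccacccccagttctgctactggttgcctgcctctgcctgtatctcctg
Pgam1, chr19:41911621-41911870, plus strand: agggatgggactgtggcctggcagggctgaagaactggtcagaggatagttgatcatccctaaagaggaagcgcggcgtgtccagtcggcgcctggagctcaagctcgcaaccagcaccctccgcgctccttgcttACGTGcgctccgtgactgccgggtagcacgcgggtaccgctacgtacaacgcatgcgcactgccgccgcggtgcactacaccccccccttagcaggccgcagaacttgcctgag
Eno3, chr11:70656926-70657175, plus strand: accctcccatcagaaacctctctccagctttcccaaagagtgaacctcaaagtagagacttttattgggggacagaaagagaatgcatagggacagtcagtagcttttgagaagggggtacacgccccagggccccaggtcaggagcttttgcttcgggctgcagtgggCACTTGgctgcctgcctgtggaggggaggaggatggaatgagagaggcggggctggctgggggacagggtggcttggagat
Eno1, chr4:150236458-150236707, plus strand: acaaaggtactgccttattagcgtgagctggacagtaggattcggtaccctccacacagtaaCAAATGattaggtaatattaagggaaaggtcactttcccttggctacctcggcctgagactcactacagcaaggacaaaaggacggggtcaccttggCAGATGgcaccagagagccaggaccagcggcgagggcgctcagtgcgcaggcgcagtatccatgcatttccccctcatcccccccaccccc

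The Pgam2 window holds 5 E-boxes and no ACGTG, and the Pgam1 window has no E-box and 1 ACGTG. Eno3 has 1 E-box and Eno1 has 2, with no ACGTG in either. The G and C content was 53.2% for Pgam2, 64% for Pgam1, 57.2% for Eno3 and 55.6% for Eno1. Of 32851 promoters of this length, 66.2% hold CANNTG and 16.6% hold ACGTG, so a single E-box is common. Among the remaining isoforms, Pfkm and Fbp2 have 3 E-boxes each and Hk2 and Pfkp none, while Pfkm, Fbp2 and Hk2 have 2 ACGTG each. Such matches are letters in a window and no evidence of binding.

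Some members are hard to count because the genome holds near-identical copies of them. The row of Gapdh, glyceraldehyde-3-phosphate dehydrogenase and usually among the most abundant transcripts of any tissue, held only 25.5, 52.3 and 17.1 FPKM in control, 14.6, 15 and 17.9 in DNCB, 7.86, 4.12 and 8.58 in scMSC and 6.45, 12.5 and 19 in scivMSC. Another 77 rows of the table match its transcript with at least 95% identity over at least 300 bases, and together they averaged 1780 FPKM. The largest, Gm13394 (chromosome 2, 28933610 to 28934609), averaged 786 FPKM, and differs from Gapdh in 1 of 1000 bases, A346C, counted from the A of the copy's first ATG and written with the base of Gapdh first. The window around that base, positions 286 to 406, is printed to show how little separates gene and copy, with the differing base in capitals.

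Gapdh: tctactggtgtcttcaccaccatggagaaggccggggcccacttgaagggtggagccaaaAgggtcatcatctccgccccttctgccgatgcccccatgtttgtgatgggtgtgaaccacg
Gm13394: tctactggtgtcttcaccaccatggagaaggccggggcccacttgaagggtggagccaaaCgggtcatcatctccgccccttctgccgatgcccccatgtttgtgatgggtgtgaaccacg

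Summed over the gene and its copies, Gapdh stood at 3246, 3148 and 2227 FPKM in control, 1656, 1658 and 1696 in DNCB, 1307, 1023 and 1634 in scMSC and 1154, 1165 and 1640 in scivMSC. The control mice lay above the others, and the Gapdh row alone was 0.402 to 1.66% of the sum. On the summed counts Gapdh was lower in DNCB than in control, at -0.98 ± 0.24 (SE, adjusted p = 0.0134), and did not differ past the threshold from scMSC (0.35 ± 0.24, adjusted p = 0.413) or scivMSC (0.33 ± 0.24, adjusted p = 0.467). The row alone gave -1.20 ± 0.47 (SE, adjusted p = 0.0858) against control, short of the threshold, and against control -2.40 ± 0.49 (SE, adjusted p = 0.00756) in scMSC and -1.5 ± 0.47 (SE, adjusted p = 0.0618) in scivMSC. On the summed counts both MSC groups were lower than control, at -1.33 ± 0.24 (SE, adjusted p = 0.00481) and -1.31 ± 0.24 (SE, adjusted p = 0.00842).

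For enolase the copies changed the level and not the direction. Eno1 shares its sequence with the member Eno1b and with Gm4735 and Gm5855, and its own row held 17.6 to 30.9% of their sum. Eno1b alone stood at 28.2, 50.3 and 44.9 FPKM in the control mice, 128, 119 and 128 in DNCB, 34.9, 35.4 and 27 in scMSC and 43.1, 7.69 and 44.7 in scivMSC, with scivMSC replicate 2 far below its group where Eno1 was highest in that group. The sum of the 4 rows was 71.2, 106 and 118 FPKM in control, 345, 349 and 290 in DNCB, 96.2, 97.6 and 81.6 in scMSC and 117, 136 and 97 in scivMSC. The DNCB mice were again above all others, and scivMSC replicate 2 stood near its group. On the summed counts the log2 fold change of DNCB was 1.56 ± 0.19 (SE, adjusted p = 0.000676) against control, 1.79 ± 0.19 (SE, adjusted p = 0.00135) against scMSC and 1.44 ± 0.19 (SE, adjusted p = 0.004) against scivMSC. With the sum in place of the Eno1 row, Eno3 made up 89.6 to 95.4% of the enolase level in control and 37.8 to 50% in DNCB. Eno1b itself was called higher in DNCB than in scMSC and scivMSC (1.92 ± 0.51, adjusted p = 0.0329 and 1.95 ± 0.51, adjusted p = 0.0423), calls that were lost without any 1 of 6 libraries and any 1 of 10 libraries, all DNCB replicates among them (adjusted p up to 0.107 and 0.104). Pgam1 has 1 such copy, Pgam1-ps2, identical over 765 bases, and summing the pair gave 1.20, 0.99 and 0.80 in the 3 comparisons with DNCB.

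**Figure D4:**
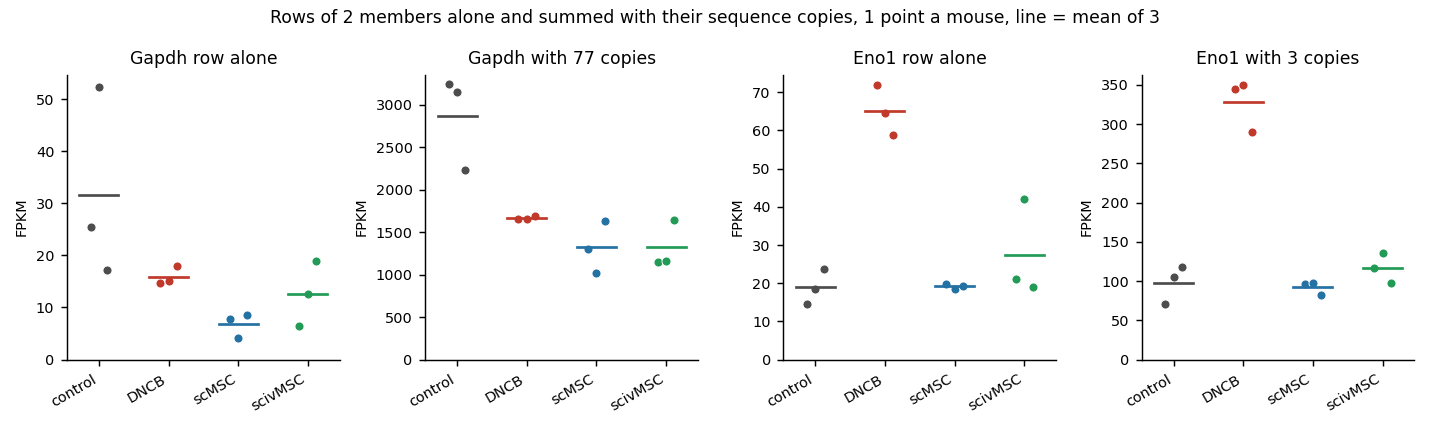
FPKM (linear axes from 0) of the Gapdh row alone, of Gapdh summed with its 77 copies, of the Eno1 row alone and of Eno1 summed with its 3 copies, 1 point a mouse and a line at the mean of 3, by group. The Gapdh sum lies far above its row, at 1023 to 3246 FPKM, and the DNCB points of the Eno1 sum, 290 to 349 FPKM, stand apart from the 71.2 to 136 FPKM of the other groups.

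At the hexokinase step the isoenzymes diverged. Hk3, the hexokinase typical of myeloid cells, was low and stood at 0.657, 0.361 and 1.66 FPKM in the control mice, 4.61, 4.26 and 4.97 in DNCB, 0.966, 0.264 and 0.199 in scMSC and 0.646, 0.674 and 0.109 in scivMSC. Every DNCB mouse was above every other mouse, and the log2 fold change was 2.22 ± 0.74 (SE, adjusted p = 0.0501) against control, just short of the threshold, 3.27 ± 0.78 (SE, adjusted p = 0.0195) against scMSC and 3.29 ± 0.78 (SE, adjusted p = 0.0284) against scivMSC. The scMSC call was lost without scMSC replicate 2 or scMSC replicate 3 (adjusted p up to 0.0799), and the scivMSC call without any 1 of the DNCB replicates, scivMSC replicate 1 or scivMSC replicate 3 (up to 0.0811). The sum of 8 neutrophil markers, none at 0 in every library, was 121 to 208 FPKM in control, 2504 to 3453 in DNCB, 16.5 to 66.2 in scMSC and 35.6 to 180 in scivMSC. Each of the 8 neutrophil markers was higher in DNCB in all 3 comparisons (backgrounds 12.9%, 5.77% and 3.60%). The part of these cells in the result was not tested. Hk1, the basal hexokinase of most cells, was 6.10, 6.47 and 9.68 FPKM in control, 8.33, 7.73 and 10.6 in DNCB and 5.08, 2.95 and 5.26 in scMSC, and was higher in DNCB than in scMSC (0.99 ± 0.24, adjusted p = 0.0205), a call lost without DNCB replicate 3 or scMSC replicate 2 (adjusted p up to 0.0778). Adpgk, which phosphorylates glucose with ADP, was 2.76, 2.18 and 2.94 FPKM in control and 5.33, 5.43 and 4.53 in DNCB, without overlap, and rose by 0.78 ± 0.16 (SE, adjusted p = 0.00595).

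Between glucose 6-phosphate and the trioses Gpi1, Pfkm, Aldoa and Tpi1 were lower in DNCB than in control. Gpi1, phosphoglucose isomerase, stood at 95.3, 88.2 and 76.7 FPKM in the control mice, 63.9, 62.2 and 53.1 in DNCB, 45.9, 45.4 and 59.7 in scMSC and 42, 57.8 and 72 in scivMSC. The DNCB mice lay below the control mice and overlapped both MSC groups. Its log2 fold change against control was -0.73 ± 0.22 (SE, adjusted p = 0.0314), lost without any 1 of the DNCB replicates, control replicate 1 or control replicate 2 (adjusted p up to 0.110). Pfkl, the liver-type phosphofructokinase, was the phosphofructokinase that rose, and stood at 6.26, 7.87 and 13.5 FPKM in the control mice, 22.7, 25.3 and 21.3 in DNCB, 10, 9.12 and 6.61 in scMSC and 11.9, 16.7 and 8.99 in scivMSC. DNCB mice were highest without overlap, at 1.16 ± 0.27 (SE, adjusted p = 0.0109) against control and 1.40 ± 0.28 (SE, adjusted p = 0.00847) against scMSC, while 0.89 ± 0.27 (SE, adjusted p = 0.0733) against scivMSC did not pass. Without control replicate 1 or control replicate 2 the control call was lost (adjusted p up to 0.0550). Aldoa, the aldolase of muscle and most other tissues and the member whose own row was highest, was 2048, 2077 and 1238 FPKM in the control mice, 474, 592 and 649 in DNCB, 817, 741 and 920 in scMSC and 642, 538 and 990 in scivMSC. It fell in DNCB against control (-1.84 ± 0.30, adjusted p = 0.00198) and did not pass against scMSC (-0.55) or scivMSC (-0.37). Tpi1, triosephosphate isomerase, was 269, 270 and 217 FPKM in the control mice, 149, 156 and 145 in DNCB, 96.8, 86.7 and 107 in scMSC and 107, 115 and 152 in scivMSC, and so lay between control and the MSC groups in the DNCB mice, though scivMSC replicate 3 reached their range. Its log2 fold change was -0.94 ± 0.18 (SE, adjusted p = 0.00418) against control and 0.61 ± 0.18 (SE, adjusted p = 0.0488) against scMSC, the latter lost without any 1 of the DNCB or scMSC replicates or scivMSC replicate 2 (adjusted p up to 0.139).

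Pgk1 and Pkm, both late in the pathway, did not pass the threshold between DNCB and control and were lower in the MSC groups. Pgk1, phosphoglycerate kinase, the first step that makes ATP, was 225, 238 and 208 FPKM in the control mice, 228, 216 and 199 in DNCB, 117, 102 and 129 in scMSC and 120, 139 and 145 in scivMSC. Pkm, the pyruvate kinase of muscle and most other tissues that makes the last ATP, was 326, 346 and 270 FPKM in the control mice, 287, 304 and 280 in DNCB, 149, 112 and 135 in scMSC and 162, 191 and 195 in scivMSC. For both genes DNCB and control mice overlapped, and all MSC mice lay below both groups. Against control the log2 fold changes of DNCB were -0.25 ± 0.14 (SE, adjusted p = 0.219) for Pgk1 and -0.30 ± 0.16 (SE, adjusted p = 0.204) for Pkm, neither past the threshold. Pgk1 was higher in DNCB than in scMSC (0.87 ± 0.14, adjusted p = 0.00362) and scivMSC (0.66 ± 0.14, adjusted p = 0.0193), as was Pkm (1.12 ± 0.17, adjusted p = 0.00269 and 0.66 ± 0.16, adjusted p = 0.0345). The scivMSC call of Pgk1 was lost without DNCB replicate 1, DNCB replicate 2 or scivMSC replicate 1 (adjusted p up to 0.0800), and that of Pkm without any 1 of the 6 libraries compared (up to 0.131). In the MSC groups against control, Pgk1 changed by -1.12 and -0.91 and Pkm by -1.42 and -0.96 (adjusted p = 0.00117, 0.00525, 0.001 and 0.00654).

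The lactate dehydrogenases differed from each other. Ldha, which favours the making of lactate, stood at 547, 587 and 436 FPKM in the control mice, 348, 364 and 332 in DNCB, 217, 194 and 227 in scMSC and 254, 256 and 346 in scivMSC. Its log2 fold change in DNCB was -0.78 ± 0.19 (SE, adjusted p = 0.0132) against control, lost without DNCB replicate 3 (adjusted p = 0.0528), and 0.69 ± 0.19 (SE, adjusted p = 0.0387) against scMSC, lost without any 1 of the 6 libraries compared (up to 0.121). Ldhb, which favours the use of lactate and is typical of heart and oxidative muscle, was 111, 81.3 and 84.5 FPKM in the control mice, 22.5, 22.5 and 26.3 in DNCB, 41.5, 33.3 and 42.5 in scMSC and 33.8, 31.8 and 66.3 in scivMSC. The DNCB mice were the lowest of the series without overlap, at -2.15 ± 0.29 (SE, adjusted p = 0.000948) against control, while -0.74 ± 0.28 (SE, adjusted p = 0.116) against scMSC and -0.92 ± 0.28 (SE, adjusted p = 0.0701) against scivMSC did not pass. Eno2, the neuronal enolase, was 2.40, 1.06 and 2.27 FPKM in control, 4.11, 3.51 and 3.42 in DNCB and 2.23, 1.43 and 1.58 in scMSC, and was higher in DNCB than in scMSC (1.05 ± 0.28, adjusted p = 0.0319). That call was lost without any 1 of the DNCB replicates, scMSC replicate 2 or scMSC replicate 3 (adjusted p up to 0.105). Bpgm, which makes bisphosphoglycerate in red blood cells, gave -0.51 ± 0.25 (SE, adjusted p = 0.157), -0.69 ± 0.25 (SE, adjusted p = 0.0978) and -0.05 ± 0.25 (SE, adjusted p = 0.949), none past the threshold.

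The pyruvate dehydrogenase complex, which carries pyruvate into the mitochondrial citrate cycle, was lower in DNCB. All 5 of its expressed genes in the pathway were lower in DNCB than in control, and in both MSC groups than in control, where 12.4%, 8.12% and 6.13% of all genes tested were lower. Of the 16 skeletal muscle markers 13, 11 and 12 were lower in the same comparisons, and their part in these results was not tested. Pdha1, the alpha subunit of its first enzyme, stood at 153, 127 and 109 FPKM in the control mice, 59.1, 57.7 and 62.6 in DNCB, 74.5, 63.2 and 92.7 in scMSC and 67.5, 60.3 and 80.2 in scivMSC. The control mice were highest without overlap, and the log2 fold change was -1.31 ± 0.19 (SE, adjusted p = 0.00127). Pdhb, the beta subunit, gave -1.10 ± 0.18 (SE, adjusted p = 0.0017). The acetyltransferase Dlat gave -1.17 ± 0.22 (SE, adjusted p = 0.00405) and the dihydrolipoamide dehydrogenase Dld -0.85 ± 0.15 (SE, adjusted p = 0.00292). Pdhx, the binding protein of the core, gave -1.48 ± 0.21 (SE, adjusted p = 0.00118). None of the 5 passed between DNCB and an MSC group, where the log2 fold changes ran from -0.38 to -0.13 against scMSC and from -0.42 to -0.16 against scivMSC. In scivMSC against control the calls of Dlat, Dld and Pdhb were lost without scivMSC replicate 1 or scivMSC replicate 2, and that of Dlat also without control replicate 1 (adjusted p up to 0.0730, 0.0628 and 0.0634).

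The acetyl-CoA synthetases make acetyl-CoA from acetate. Acss1, the mitochondrial form, was 12.6, 7.51 and 12.5 FPKM in the control mice, 2.64, 2.60 and 3.51 in DNCB, 11, 7.42 and 10.6 in scMSC and 10, 6.67 and 12.7 in scivMSC. Every DNCB mouse lay below every other mouse, and the scMSC and scivMSC mice overlapped the control mice. Its log2 fold change in DNCB was -2.08 ± 0.28 (SE, adjusted p = 0.000951) against control, -1.74 ± 0.28 (SE, adjusted p = 0.00347) against scMSC and -1.77 ± 0.28 (SE, adjusted p = 0.00632) against scivMSC, and each of these calls held whichever library was left out. The sum of 6 sebaceous gland markers, none at 0 in every library, was 72.9 to 104 FPKM in control, 3.55 to 6.84 in DNCB, 25.9 to 75 in scMSC and 42.4 to 101 in scivMSC, and its part in the Acss1 values was not tested. Acss2, the cytosolic and nuclear form, was 5.29, 6.91 and 4.81 FPKM in the control mice, 2.70, 2.16 and 2.37 in DNCB, 3.92, 2.93 and 3.11 in scMSC and 3.38, 2.69 and 4.98 in scivMSC. It fell in DNCB against control (-1.43 ± 0.25, adjusted p = 0.00258), and the differences of -0.48 ± 0.25 (SE, adjusted p = 0.254) and -0.63 ± 0.25 (SE, adjusted p = 0.149) from the MSC groups did not pass.

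Members that run the pathway backwards included some that were highest in MSC-treated skin. Fbp1, the fructose bisphosphatase of liver and epithelia (chromosome 13, 62864753 to 62888282), stood at 0.606, 2.87 and 2.03 FPKM in the control mice, 3.52, 2.98 and 5.46 in DNCB, 28.4, 78.4 and 69.3 in scMSC and 27.6, 13.3 and 18.6 in scivMSC. Every MSC-treated mouse was above every mouse without MSCs. The log2 fold change of DNCB was -3.92 ± 0.59 (SE, adjusted p = 0.00283) against scMSC, -2.32 ± 0.55 (SE, adjusted p = 0.0291) against scivMSC and 0.93 ± 0.54 (SE, adjusted p = 0.239) against control. Fbp1 was higher than in control by 4.86 ± 0.62 (SE, adjusted p = 0.00123) in scMSC and 3.26 ± 0.58 (SE, adjusted p = 0.00736) in scivMSC. The call of DNCB against scivMSC was lost without any 1 of the DNCB replicates, scivMSC replicate 1 or scivMSC replicate 3 (adjusted p up to 0.110). With both genes counted, Fbp2 was 89.5 to 98.7% of the fructose bisphosphatases in control, 57.7 to 73.4% in DNCB, 21.9 to 53.8% in scMSC and 31.4 to 52.2% in scivMSC.

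Pck1, the cytosolic PEP carboxykinase that starts gluconeogenesis and glyceroneogenesis in fat, was 16.9, 11.2 and 6.67 FPKM in the control mice, 6.14, 11 and 15 in DNCB, 41.8, 22.9 and 13.6 in scMSC and 60.1, 61.4 and 26.2 in scivMSC. The scivMSC mice lay above the control and DNCB mice, and the scMSC mice overlapped both. Its log2 fold change in DNCB was -2.19 ± 0.51 (SE, adjusted p = 0.0263) against scivMSC, lost without any 1 of the DNCB replicates, scivMSC replicate 1 or scivMSC replicate 2 (adjusted p up to 0.0949), and -1.30 ± 0.49 (SE, adjusted p = 0.12) against scMSC. The sum of 8 adipocyte markers, none at 0 in every library, was 500 to 626 FPKM in control, 206 to 379 in DNCB, 378 to 797 in scMSC and 543 to 1004 in scivMSC. Against scivMSC, 3 of the 8 were lower in DNCB (Cidec, Retn and Cfd, background 4.56%) and 1 was higher (Lep, background 3.60%). The other 4 did not pass. In scivMSC against control only Lep passed, and it was lower (background 6.13%). In DNCB 5 of the 8 were lower than in control (Plin1, Cidec, Retn, Pparg and Cfd, background 12.4%), and 1, Cfd, was lower than in scMSC (background 6.95%). Pck1 itself did not pass between DNCB and control (-0.31 ± 0.49, adjusted p = 0.693). The part of these markers in the Pck1 values was not tested. Pck2, the mitochondrial form, passed in none of these comparisons. G6pc3, the glucose-6-phosphatase of most tissues, was lower in DNCB than in control (-0.80 ± 0.19, adjusted p = 0.0122), a call lost without DNCB replicate 3 (adjusted p = 0.0505). The liver form G6pc was at 0 to 0.304 FPKM and passed nowhere.

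Of the genes annotated as phosphoglucomutases, Pgm1, which joins glycogen to glycolysis, and Pgm2 moved apart. Pgm1 was 120, 128 and 97.2 FPKM in the control mice, 39.2, 46.1 and 49.2 in DNCB, 43.2, 28.8 and 44.8 in scMSC and 39.8, 37.1 and 57 in scivMSC, with control mice highest and a log2 fold change of -1.55 ± 0.23 (SE, adjusted p = 0.00127) in DNCB. Against scMSC (0.19) and scivMSC (-0.01) it did not pass. Pgm2 stood at 2.51, 3.15 and 3.70 FPKM in the control mice, 8.62, 8.59 and 9.58 in DNCB, 17.5, 48.7 and 17 in scMSC and 17.6, 10.6 and 10.6 in scivMSC. It ran without overlap from control through DNCB to the MSC groups, which overlapped each other, and scMSC replicate 2 was the highest mouse. The log2 fold change of DNCB was 1.34 ± 0.40 (SE, adjusted p = 0.031) against control and -1.69 ± 0.40 (SE, adjusted p = 0.0193) against scMSC, and -0.54 ± 0.39 (SE, adjusted p = 0.468) against scivMSC. The control call was lost without any 1 of the 6 libraries compared (adjusted p up to 0.121) and the scMSC call without any 1 of the DNCB replicates (up to 0.0703). Minpp1, an inositol polyphosphate phosphatase that also acts on bisphosphoglycerate, was 9.71, 11.9 and 14.1 FPKM in the control mice, 11.7, 12.3 and 13.4 in DNCB, 21.2, 39.4 and 27.2 in scMSC and 19.5, 13.8 and 13.6 in scivMSC, and DNCB was below scMSC (-1.27 ± 0.24, adjusted p = 0.00737) and not past the threshold against scivMSC (-0.33 ± 0.24, adjusted p = 0.469).

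Hair genes were highest in the same mice. The sum of 7 hair shaft and inner root sheath markers (Krt25, Krt27, Krt71, Tchh, Krt31, Krt81 and Krt86, none at 0 in every library) was 3.13 to 277 FPKM in control, 277 to 865 in DNCB, 6201 to 17652 in scMSC and 2293 to 5697 in scivMSC. All 7 were higher in scMSC than in control (background 10.4%), and 5 of them in scivMSC (background 7.11%). In DNCB 4 of the 7 were lower than in scMSC (background 6.95%) and 3 were lower than in scivMSC (background 4.56%). Of the 7 only Krt81 passed between DNCB and control, and it was higher in DNCB (background 12.9%). scMSC replicate 2 had the highest marker sum and the highest Fbp1, Pgm2 and Minpp1 of the series. The part of hair growth in the Fbp1, Pgm2 and Minpp1 results was not tested.

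**Figure D5:**
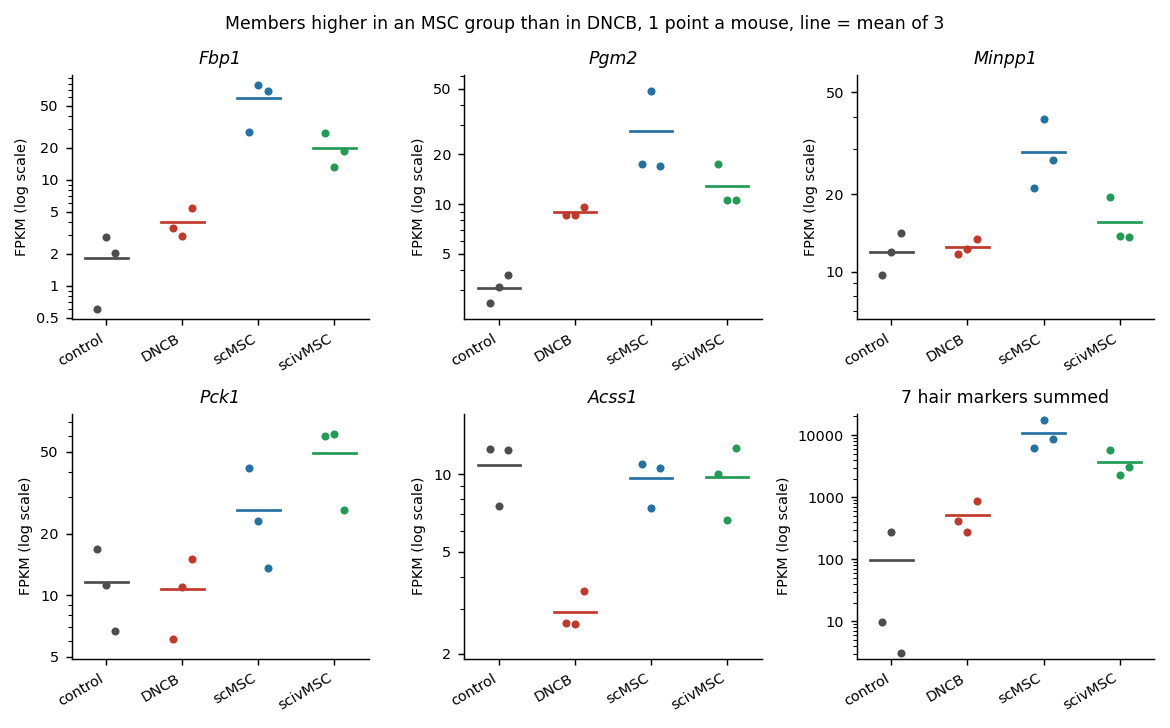
FPKM (log axes) of Fbp1, Pgm2, Minpp1, Pck1 and Acss1 and the summed FPKM of 7 hair shaft and inner root sheath markers in each mouse, 1 point a mouse and a line at the mean of 3, by group. Fbp1 and the hair markers are higher in all 6 MSC-treated mice than in the other 6, and Acss1 differs in shape, with the DNCB mice alone at 2.60 to 3.51 FPKM below all others.

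Aldehyde and alcohol dehydrogenases, which join the pathway at acetaldehyde and acetate, were divided. Aldh3a1, an aldehyde dehydrogenase of stratified epithelia, stood at 20.6, 14.7 and 18.8 FPKM in the control mice, 6.28, 3.07 and 3.58 in DNCB, 14.6, 7.66 and 9.15 in scMSC and 13.1, 12.6 and 22.1 in scivMSC. The DNCB mice were lowest without overlap, at -2.25 ± 0.35 (SE, adjusted p = 0.00152) against control, -1.29 ± 0.34 (SE, adjusted p = 0.0298) against scMSC and -1.91 ± 0.34 (SE, adjusted p = 0.01) against scivMSC, and the scMSC call was lost without DNCB replicate 2, DNCB replicate 3, scMSC replicate 1 or scMSC replicate 3 (adjusted p up to 0.112). Aldh2, the mitochondrial acetaldehyde dehydrogenase, fell in DNCB against control (-0.84 ± 0.14, adjusted p = 0.00181). Aldh9a1, which acts on aminobutyraldehyde, was higher in DNCB than in control (0.52 ± 0.13, adjusted p = 0.016), lost without DNCB replicate 2, control replicate 1 or control replicate 2 (adjusted p up to 0.0885). Akr1a1, an aldehyde reductase, was 89.2, 97.4 and 96.1 FPKM in the control mice, 129, 130 and 129 in DNCB, 94.5, 92.9 and 93.3 in scMSC and 94.5, 111 and 86.8 in scivMSC. The DNCB mice were above all others by a small margin, 0.27 ± 0.11 (SE, adjusted p = 0.0832) against control, which did not pass, 0.44 ± 0.11 (SE, adjusted p = 0.0203) against scMSC and 0.41 ± 0.11 (SE, adjusted p = 0.0403) against scivMSC. Leaving out any 1 of 5 libraries for scMSC or any 1 of 9 for scivMSC, DNCB replicate 1 among them, ended these calls (adjusted p up to 0.0747 and 0.140).

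Aldh7a1, which degrades lysine and osmolyte aldehydes, was higher in DNCB at 0.85 ± 0.20 (SE, adjusted p = 0.0185) against scMSC and 0.75 ± 0.20 (SE, adjusted p = 0.044) against scivMSC. Aldh3b1 was higher in DNCB than in scivMSC (1.82 ± 0.49, adjusted p = 0.0443), and Aldh3b3 was lower (-1.02 ± 0.28, adjusted p = 0.0467). Each of these calls was lost in at least 5 of the 12 fits that left out 1 library, every DNCB replicate among them (adjusted p up to 0.0681 and 0.138 for Aldh7a1, 0.125 for Aldh3b1 and 0.164 for Aldh3b3). Aldh3b2, the most abundant aldehyde dehydrogenase of the set at 28.7 to 57.8 FPKM, passed in no comparison with DNCB, nor did Aldh3a2, Aldh1a3 or the alcohol dehydrogenases Adh1, Adh5 and Adh7. In scMSC against control Adh7 was lower (-0.88) and Aldh1a3, which makes retinoic acid, was higher (1.27), calls that were lost without any 1 of 4 libraries and any 1 of 9 libraries, control replicate 1 and scMSC replicate 3 among both (adjusted p up to 0.0951 and 0.165).

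Aldoc, Gapdhs, Eno4, Pklr, Pck2, Galm, Aldh1b1 and G6pc, most of them forms of liver, brain or testis, were low. They had means from 0.103 to 2.90 FPKM and no adjusted p under 0.05 in a comparison with DNCB.

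Genes around the pathway moved in part with it. Of 9 sugar and lactate transport genes, 3 were higher and 2 lower in DNCB than in control, 5 higher and 1 lower than in scMSC, and 4 higher and none lower than in scivMSC (by edgeR, median log2 fold changes 0.37, 0.74 and 0.45). Over all genes tested 12.9% were higher and 12.4% lower than in control, 5.77% and 6.95% than in scMSC, and 3.60% and 4.56% than in scivMSC. Slc2a1, the glucose carrier GLUT1 of most cells, stood at 9.85, 11.4 and 25.9 FPKM in the control mice, 86.1, 84.8 and 63.4 in DNCB, 14.9, 11.9 and 7.86 in scMSC and 15.5, 33.4 and 12.9 in scivMSC. The DNCB mice were highest without overlap, at 2.15 ± 0.42 (SE, adjusted p = 0.00439) against control, 2.73 ± 0.43 (SE, adjusted p = 0.00329) against scMSC and 1.93 ± 0.42 (SE, adjusted p = 0.0207) against scivMSC. The last was lost without DNCB replicate 1, DNCB replicate 2, scivMSC replicate 1 or scivMSC replicate 3 (adjusted p up to 0.0851). Slc2a3, the high-affinity carrier GLUT3, rose by 3.54 ± 0.43 (SE, adjusted p = 0.000685), 3.14 ± 0.42 (SE, adjusted p = 0.0022) and 2.72 ± 0.41 (SE, adjusted p = 0.00567) in the same comparisons, and Slc2a6 by 2.10, 2.88 and 3.0. Slc2a4, the insulin-responsive GLUT4 of muscle and fat, fell in DNCB against control (-2.07 ± 0.31, adjusted p = 0.00131), as did Slc2a12 (-1.35 ± 0.28, adjusted p = 0.0054). Slc16a3, the lactate exporter MCT4, was 15.4, 13.2 and 12.8 FPKM in the control mice, 26.8, 19.3 and 14.8 in DNCB, 6.63, 4.83 and 6.40 in scMSC and 5.38, 3.71 and 5.75 in scivMSC. DNCB overlapped control (0.37 ± 0.23, adjusted p = 0.285) and was above both MSC groups (1.75 ± 0.24, adjusted p = 0.00232 and 2.02 ± 0.24, adjusted p = 0.00319).

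Of 15 genes that control glycolysis, 2 were higher and 6 lower in DNCB than in control, 1 higher and 3 lower than in scMSC, and 1 higher and 1 lower than in scivMSC (medians -0.63, -0.04 and -0.11). The 6 and the 3 lower genes are larger shares than those over all genes just given, and the other counts are near them. Hif1a, the oxygen-regulated transcription factor that drives glycolytic genes, stood at 10, 11.8 and 11.6 FPKM in the control mice, 40.3, 42.2 and 43.3 in DNCB, 15.2, 11.1 and 9.78 in scMSC and 15.4, 22.9 and 11 in scivMSC. The DNCB mice lay above every other mouse, at 1.73 ± 0.22 (SE, adjusted p = 0.000857), 1.78 ± 0.22 (SE, adjusted p = 0.00199) and 1.36 ± 0.22 (SE, adjusted p = 0.00714). Of 8 HIF-1 targets outside the pathway, 1 was higher in DNCB than in control (Ero1l) and 1 was lower (Bnip3), 1 was higher than in scMSC (Car9) and 1 was lower than in scivMSC (Bnip3). The first of these shares, 1 of 8 each way, is near the background of 12.9% and 12.4%. Pdk2, a kinase that shuts pyruvate dehydrogenase, fell in DNCB against control (-2.12 ± 0.30, adjusted p = 0.00119), as did Tigar, which lowers the activator of phosphofructokinase (-1.79 ± 0.25, adjusted p = 0.00107). Pdk4, the fasting-induced kinase of the same kind, was 165, 54.2 and 45.6 FPKM in the control mice, 47, 66.9 and 43.2 in DNCB, 221, 143 and 276 in scMSC and 247, 203 and 336 in scivMSC. DNCB was below both MSC groups (-2.04 ± 0.48, adjusted p = 0.0182 and -2.34 ± 0.48, adjusted p = 0.0175), calls that were lost without DNCB replicate 1, DNCB replicate 3 or replicate 3 of the MSC group (adjusted p up to 0.0732 and 0.0708). Among 11 genes of glycogen metabolism 8 were lower in DNCB than in control, with a median log2 fold change of -1.64 (background 12.4%), and 1 (Ugp2) was lower than in scMSC. The same 8 genes were lower than control in scMSC and in scivMSC, as were most skeletal muscle markers, whose part in this was not tested.

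Markers of other skin cells differed between the groups as well. Over all genes tested 12.9%, 5.77% and 3.60% were higher in DNCB than in control, scMSC and scivMSC, and 12.4%, 6.95% and 4.56% were lower. The sum of 7 stress keratinocyte markers (Krt6a, Krt6b, Krt16, Krt17, Sprr1b, S100a8 and S100a9) was 623 to 788 FPKM in control, 10478 to 12535 in DNCB, 713 to 1541 in scMSC and 1260 to 4984 in scivMSC. Of the 7, 7, 6 and 2 were higher in DNCB than in control, scMSC and scivMSC, and the 2 were S100a8 and S100a9, which are also in the neutrophil list. The sum of 8 keratinocyte markers such as Krt14 and Krt10, none at 0, was 6329 to 12586 FPKM in control, 13520 to 19707 in DNCB, 5292 to 9872 in scMSC and 9221 to 15836 in scivMSC, so the DNCB mice were highest and scivMSC replicate 2 was within their range. Krt14 and Krt5 were higher in DNCB in all 3 comparisons and Lor was lower, Krt15 was lower than in control, and the other 4 passed in none. The 5 mitosis markers summed to 8.17 to 18.5 FPKM in control, 55.1 to 74.8 in DNCB, 31.7 to 60.9 in scMSC and 30 to 50.2 in scivMSC, and all 5 were higher in DNCB than in control and none than in an MSC group. The sum of 6 fibroblast markers was 232 to 346 FPKM in control, 1916 to 2233 in DNCB, 245 to 750 in scMSC and 124 to 946 in scivMSC, and 4, 3 and 0 of them were higher in DNCB than in control, scMSC and scivMSC by edgeR. That of 6 macrophage and monocyte markers was 141 to 519 FPKM in control, 665 to 788 in DNCB, 119 to 274 in scMSC and 37.7 to 309 in scivMSC. Of the 6, 1, Cd14, was higher in DNCB in each comparison, a count near the share over all genes against control. The part of these cells in the Pgam1, Eno1, Pfkl and Slc2a1 results was not tested.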

How the data were processed

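Total RNA of dorsal skin was extracted with Trizol and sequenced in 12 libraries, 3 mice in each of 4 groups assigned by the sample titles. The authors deposited 1 table with FPKM and whole-number estimated counts for each library, not scaled between libraries. The submitters' processing notes name HISAT2 2.0, StringTie 1.3.0, Bowtie 0.12.2 and the build mm8, whereas the coordinates in the table are those of GRCm38. About 4 estimated counts appeared to stand for 1 fragment, so that counting error is larger than the counts themselves imply, and the replicate spread was used for each test. How reads that match several copies of a gene were assigned is not given in the sources used here. Blood was not analysed here, and the table's annotation was used to choose the members.

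Every gene averaging 0.1 FPKM or more entered edgeR 4.0.16 in R 4.3.3 (TMM factors 0.887 to 1.06, 1 model of 4 groups, quasi-likelihood F-test), with Benjamini-Hochberg adjustment over 21890 genes. The fit was tested on simulated data. Alternatives were DESeq2 1.42.0, limma 3.58.1 on log2(FPKM + 0.1) and log2(FPKM + 1), library size alone, counts divided by 4, other filters, a fold threshold, only the 6 libraries compared, the replicate number as a block, and each library left out in turn. Summing the counts of near-identical copies, found with blastn 2.17.0, was added after seeing the data. Members and lists were chosen with earlier results of these data known. Genes named were the 8 isoforms, the most abundant member of each step, the members with the largest changes past the threshold and markers of other cells. Of the transport and control lists only part is named, and the rest entered the counts. The other members named, and Ero1l, Bnip3 and Ugp2, were chosen after their values were seen. The 250 bases upstream of the start nearest each gene's annotated coordinate were read from the RefSeq promoter table of GRCm38.p6. Some members entered each count and median but are not reported here by name.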

Additional observations from a re-analysis of the deposited data

How the results depend on the processing

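The members higher in DNCB than in control numbered 6, and became 10 with DESeq2, 11 with library size alone, 11 with limma on log2(FPKM + 0.1), 11 with limma on log2(FPKM + 1) and 10 with only the 6 libraries compared. The 13 higher than in scMSC became 6 when a log2 fold change over 1 was also asked for. The 9 higher than in scivMSC became 5 with no filter, 4 with that fold threshold and 3 with the replicate block, which also took the 5 lower members to 3. The 22 members past the threshold in scivMSC against control became 9 with only the 6 libraries compared. The causes were not tested. Same-numbered libraries did not deviate together over all genes (r from -0.185 to 0.133, over 0.1 in 1 of 18 pairs). The labels do not say what the replicate number stands for, and such a correlation cannot exclude a pairing of the mice.

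Leaving out 1 library gave 3 to 7 members higher in DNCB than in control, 6 to 14 than in scMSC and 0 to 8 than in scivMSC, and 18 to 22, 4 to 7 and 2 to 5 lower. It gave 23 to 28 members past the threshold in scMSC against control, 12 to 27 in scivMSC against control and 0 between the MSC groups. The difference between muscle and ubiquitous isoforms ran from -3.33 to -2.62 against control, from -1.94 to -1.59 against scMSC and from -1.68 to -0.75 against scivMSC. Over the isoforms, most abundant members, largest changes and whole transport and control lists, 3655 alternative values kept their side of the threshold. Another 73 came past it and 223 lost it. None changed sign where either fit made a call, and other changes of sign were not counted. In comparisons with control the median of all genes moved to between 0.078 and 0.214 with library size alone or limma. Members under 1 FPKM rest on few fragments.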
